A study of Arabidopsis thaliana with 18 samples.

Results

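RALFL22 (AT3G05490) and RALFL33 (AT4G15800) encode secreted peptides of the RALF (rapid alkalinization factor) family of Arabidopsis thaliana. Each was read by 1 probe set, 259106_at for RALFL22 and 245334_at for RALFL33, found by gene symbol in the platform's annotation. These are 2 of the 22746 probe sets other than controls on the Affymetrix ATH1 array. Their levels were followed in shoots and roots of ecotype Ws-2 under 3 treatments. Caesium-treated plants received diluted MS nutrient solution with 2 mM caesium, and potassium-starved plants received diluted MS solution without potassium. No source used here gives the solution of the control plants. Each organ and treatment had 3 samples, all labelled as growth stage 3.9, and each sample combined 40 to 50 plants and was read on 1 array. They are numbered as replicates with no word on separate sowings, so the p-values take in only the spread among these samples, which may be technical.

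RALF peptides are made as larger precursors, and several of them, RALFL33 among these, carry a site that the protease S1P cuts. At the cell surface RALF peptides bind receptor kinases of the CrRLK1L family, of which FER (FERONIA) is the best known, together with LORELEI-like co-receptors. They also bind leucine-rich repeat extensins in the cell wall. Binding of RALF1 to FER leads to inhibition of plasma membrane proton pumps, alkalinization of the wall space and slower cell expansion, and RALF peptides are also known for their parts in root hair growth, immunity and the response to salt.

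The arrays of a group correlated across probe sets with r from 0.956 to 0.977 in shoots and from 0.966 to 0.985 in roots. Summed signals of the 4 shoot markers PRK, RCA, SBPASE and LHCB4.2 ranged from 4424 to 9625 in shoots and from 63.9 to 283.4 in roots. Those of the 3 root markers PYK10, EXPA7 and EXPA18 ranged from 2092 to 3630 in roots and from 78.7 to 1253 in shoots, so that each organ was led by its own markers. Replicate 2 had the highest root marker sum in each shoot group, at 996.7 in caesium-treated, 937.0 in potassium-starved and 1253 in control shoots. Nearly all of these sums was PYK10, at 948.5, 902.7 and 1199.7 in the same order. EXPA7 and EXPA18 had shoot group means below 26.7, the floor for testing in shoots. The array of potassium-starved shoot replicate 2 also had the lowest median signal of all, 33.0 against 38.9 to 45.4 on the other shoot arrays. The titles of potassium-starved root replicate 1 and caesium-treated root replicate 2 are marked as repeats.

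In shoots, both genes stood lower in caesium-treated than in potassium-starved plants, with control plants between them. The signals of RALFL22 in replicates 1, 2 and 3 were 150.2, 142.4 and 150.4 in caesium-treated shoots, 316.4, 473.2 and 304.5 in potassium-starved shoots and 189.5, 252.1 and 305.7 in control shoots. The signals of RALFL33 were 416.9, 310.2 and 312.6 in caesium-treated shoots, 585.5, 1065.9 and 542.8 in potassium-starved shoots and 459.1, 498.8 and 566.5 in control shoots. For both genes all 3 caesium-treated arrays lay below every potassium-starved and every control array, whereas the potassium-starved and control arrays overlapped. The share of all probe sets that separate in this way is not given here. An unadjusted limma p under 0.05 was found in 41.2% of tested probe sets for caesium against potassium starvation. For caesium against control it was found in 15.2%. The highest shoot signal of either gene came from potassium-starved replicate 2.

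**Figure D1:**
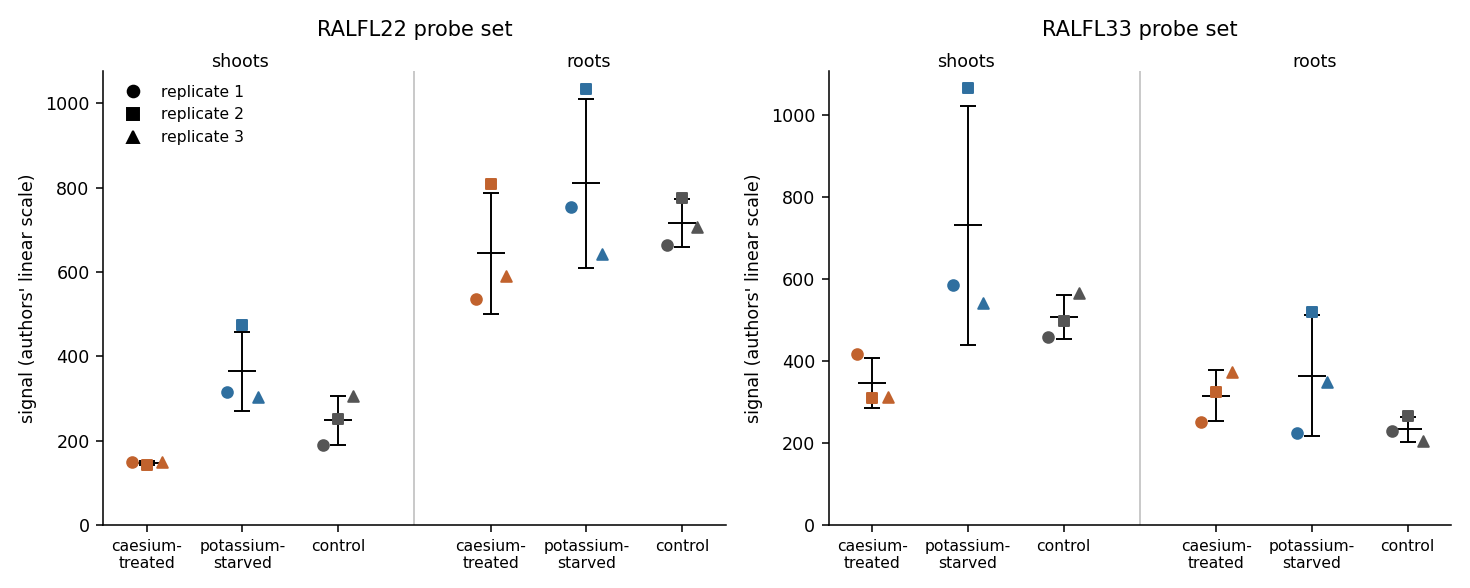
Signal of the RALFL22 probe set (left) and the RALFL33 probe set (right) on each of the 18 arrays, on the authors' linear scale, by organ and treatment; symbols mark replicate numbers, and bars show the group mean and SD (n = 3). The caesium-treated shoots sit lowest among shoots for both genes, and the root groups lie above the shoot groups for RALFL22 but not for RALFL33.

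Set against potassium starvation, RALFL22 averaged 147.7 ± 4.56 in caesium-treated shoots and 364.7 ± 94.2 in potassium-starved shoots (SD, n = 3 each). On the log2(signal + 16) scale it fell by 1.19 ± 0.21 (SE; limma adjusted p = 0.0036), 2.28-fold lower. RALFL33 averaged 346.6 ± 60.9 in caesium-treated shoots and 731.4 ± 290 in potassium-starved shoots (SD, n = 3 each). It fell by 0.99 ± 0.24 on the same scale (SE; limma adjusted p = 0.0141), 1.99-fold lower. Both genes were lower in 3 of 3 pairs of arrays with the same replicate number, which follows from the lack of overlap given above. Calls were common in this comparison: 3885 of 13647 tested probe sets (28.5%) passed, 1327 (9.72%) downward and 2558 (18.7%) upward, and with each array centred on its median the numbers were 2155 down and 1532 up. The fitted change was at least as far down as that of RALFL22 in 310 of the 13647 probe sets (2.27%) and as that of RALFL33 in 481 (3.52%), while the median over all was 0.13.

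Leaving out potassium-starved replicate 2, the highest array for both genes, left a log2 change of -0.996 for RALFL22 (limma adjusted p = 0.0127) and of -0.69 for RALFL33 (limma adjusted p = 0.031). Both genes passed in each of the 6 fits without 1 of the arrays compared. The highest limma adjusted p among these was 0.0157 for RALFL22 and 0.0491 for RALFL33, the latter just under the threshold. Because whole shoots were measured, a lower level per cell and a smaller share of cells with the transcript cannot be told apart. Of the tissue measures, the shoot marker sum was 6892 to 8582 in caesium-treated and 4424 to 6730 in potassium-starved shoots, and the root marker sums overlapped. Their part in the result was not tested.

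Against control shoots, neither gene passed the threshold in caesium-treated shoots. RALFL22 averaged 147.7 ± 4.56 in caesium-treated and 249.1 ± 58.2 in control shoots (SD, n = 3 each), a log2 change of -0.67 with a 95% interval from -1.13 to -0.21 (limma adjusted p = 0.146; unadjusted p = 0.00827). RALFL33 averaged 346.6 ± 60.9 in caesium-treated and 508.1 ± 54.3 in control shoots (SD, n = 3 each), a log2 change of -0.54 with an interval from -1.08 to -0.0036 (limma adjusted p = 0.325; unadjusted p = 0.0487). Each was lower in 3 of 3 numbered pairs, which also follows from the lack of overlap given above. This comparison called 136 of 13647 probe sets (0.997%), 104 of them higher, or 63 of 127 with each array centred on its median, and 790 with the replicate number as a block. With that block the limma adjusted p-values were 0.067 for RALFL22 and 0.204 for RALFL33. With limma's array weights, which lower the influence of arrays that fit the model poorly, both passed, at log2 changes of -0.79 (limma adjusted p = 0.0139) and -0.67 (limma adjusted p = 0.033). The GAPDH 3'/5' signal ratio, a measure of RNA integrity, was 1.01 to 1.17 on the caesium-treated and 1.19 to 1.45 on the control shoot arrays, and its part in these values was not tested.

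Potassium starvation alone gave positive changes in shoots that did not pass either. RALFL22 averaged 364.7 ± 94.2 in potassium-starved and 249.1 ± 58.2 in control shoots (SD, n = 3 each). Its log2 change was 0.52 with a 95% interval from 0.058 to 0.98 (limma adjusted p = 0.0843, unadjusted p = 0.0306). For RALFL33 the means were 731.4 ± 290 in potassium-starved and 508.1 ± 54.3 in control shoots (SD, n = 3 each). Its log2 change was 0.45 with an interval from -0.085 to 0.99 (limma adjusted p = 0.184, unadjusted p = 0.0911). The groups overlapped for both genes, and 2 of 3 numbered pairs were higher. Without potassium-starved replicate 2 the change was 0.32 for RALFL22 and 0.15 for RALFL33. The shoot marker sum was 4424 to 6730 in potassium-starved and 8823 to 9625 in control shoots, and its part in these values was not tested. In this comparison 3983 of 13647 probe sets (29.2%) passed, 1645 up and 2338 down, or 1996 up and 1825 down after median centring, and the median over all was -0.12. Both comparisons with control use the same 3 control arrays.

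**Figure D2:**
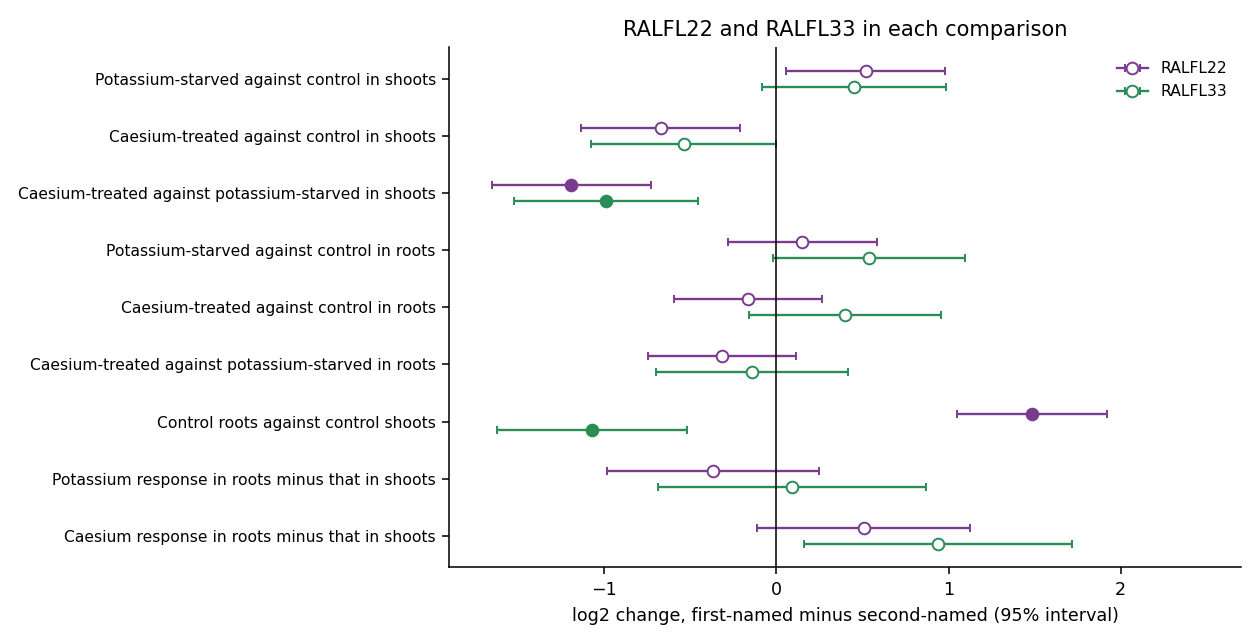
Log2 change of RALFL22 (purple) and RALFL33 (green) in each of the 9 comparisons, first-named minus second-named, with 95% intervals from limma; filled points passed an adjusted p of 0.05. Filled points appear for both genes in caesium-treated against potassium-starved shoots, on the same side of 0, and in control roots against control shoots, on opposite sides.

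In roots the signals of the treatments overlapped for both genes. RALFL22 had signals of 536.7, 807.5 and 590.1 in caesium-treated roots, 754.2, 1032.3 and 643.3 in potassium-starved roots and 663.5, 776.0 and 706.5 in control roots. RALFL33 had 251.4, 324.9 and 373.2 in caesium-treated roots, 225.8, 520.2 and 349.6 in potassium-starved roots and 228.8, 267.1 and 206.3 in control roots. For RALFL22 no treatment was set apart, and for RALFL33 the lowest array of each treatment fell within the range of the control arrays.

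None of the 6 tests of these genes between root treatments passed. In caesium-treated against potassium-starved roots the log2 change was -0.32 for RALFL22 (95% interval -0.75 to 0.12; limma adjusted p = 0.346) and -0.14 for RALFL33 (-0.70 to 0.42; limma adjusted p = 0.775). In caesium-treated against control roots it was -0.17 for RALFL22 (-0.60 to 0.27; limma adjusted p = 0.832) and 0.40 for RALFL33 (-0.16 to 0.96; limma adjusted p = 0.64). In potassium-starved against control roots it was 0.15 for RALFL22 (-0.28 to 0.58; limma adjusted p = 0.717) and 0.54 for RALFL33 (-0.017 to 1.10; limma adjusted p = 0.287). Potassium-starved replicate 2 was the highest root array for both genes, and without it the change against control was -0.035 for RALFL22 and 0.26 for RALFL33. For both genes the root interval for potassium starvation holds the change measured in shoots, 0.52 for RALFL22 and 0.45 for RALFL33. Among all 13647 probe sets tested in roots, limma called 690 (5.06%) for caesium against potassium starvation, 341 of them higher or 272 of 755 after median centring, and 200 (1.47%) for potassium starvation against control. For caesium against control limma called 0, with 1352 at an unadjusted p under 0.05 and 51 with the replicate number as a block.

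The clearest contrast between these genes was that of the organs. RALFL22 averaged 715.3 ± 56.8 in control roots and 249.1 ± 58.2 in control shoots (SD, n = 3 each), higher in roots by 1.49 ± 0.21 on the log2 scale (SE; limma adjusted p = 9.93e-06), or 2.80-fold. RALFL33 averaged 234.1 ± 30.7 in control roots and 508.1 ± 54.3 in control shoots (SD, n = 3 each), a log2 change of -1.07 ± 0.26 (SE; limma adjusted p = 0.00251), or 2.10-fold lower in roots. The control root and control shoot arrays did not overlap for either gene. Of all probe sets tested in both organs, 54.3% had an unadjusted limma p under 0.05. Of 11867 probe sets tested in both organs, 5661 (47.7%) passed, 3487 higher and 2174 lower in roots, or 3203 and 2343 after median centring, so a call in this comparison is common.

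Ordered by mean signal, RALFL22 ran from potassium-starved roots (809.9) through control roots (715.3), caesium-treated roots (644.8), potassium-starved shoots (364.7) and control shoots (249.1) to caesium-treated shoots (147.7). Neighbours overlapped in this order except between caesium-treated roots and potassium-starved shoots and between control and caesium-treated shoots. The lowest group had 18.2% of the mean of the highest. RALFL33 ran from potassium-starved shoots (731.4) through control shoots (508.1), potassium-starved roots (365.2), caesium-treated shoots (346.6) and caesium-treated roots (316.5) to control roots (234.1), and every neighbouring pair overlapped. Its lowest group had 32.0% of the mean of the highest. Potassium-starved plants had the highest mean of their organ for both genes. In roots this rested on potassium-starved replicate 2. Without that array the log2 change of RALFL22 against control was -0.035. That of RALFL33 in caesium-treated against potassium-starved roots was then 0.14. The coefficient of variation over 3 arrays was lowest for RALFL22 in caesium-treated shoots, 3.09%, and highest for RALFL33 in potassium-starved roots, 40.5%.

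The difference between the root and the shoot response was tested directly. For the response to caesium it was 0.51 ± 0.29 for RALFL22 (SE; limma adjusted p = 0.602) and 0.94 ± 0.37 for RALFL33 (SE; limma adjusted p = 0.376; unadjusted p = 0.0208). RALFL33 had a lower mean in caesium-treated shoots and a higher one in caesium-treated roots than in the controls, and this difference passed with array weights alone (1.17, limma adjusted p = 0.0388). For the response to potassium starvation it was -0.37 ± 0.29 for RALFL22 (SE; limma adjusted p = 0.453) and 0.09 ± 0.37 for RALFL33 (SE; limma adjusted p = 0.905). Of 11867 probe sets, 21 (0.177%) passed for caesium and 1187 (10%) for potassium starvation, 580 of these higher or 474 of 1199 after median centring.

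Across the 9 shoot arrays the log2 levels of RALFL22 and RALFL33 moved together, with Pearson's r of 0.942 and Spearman's rho of 0.983. Without potassium-starved replicate 2 and caesium-treated replicate 2, the arrays farthest from the median of RALFL22, r was 0.909 over 7 arrays, and with the group means taken off it was 0.820 over 9. In roots r was 0.448 and rho 0.15 over 9 arrays, and without potassium-starved replicate 2 and caesium-treated replicate 1 r was -0.373, so that the positive sign there rested on those arrays. With the group means taken off it was 0.548 over all 9 root arrays. Over the 6 group means r was -0.426. The arrays share sample, scaling and treatment between both genes, and these correlations are descriptions without a test.

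**Figure D3:**
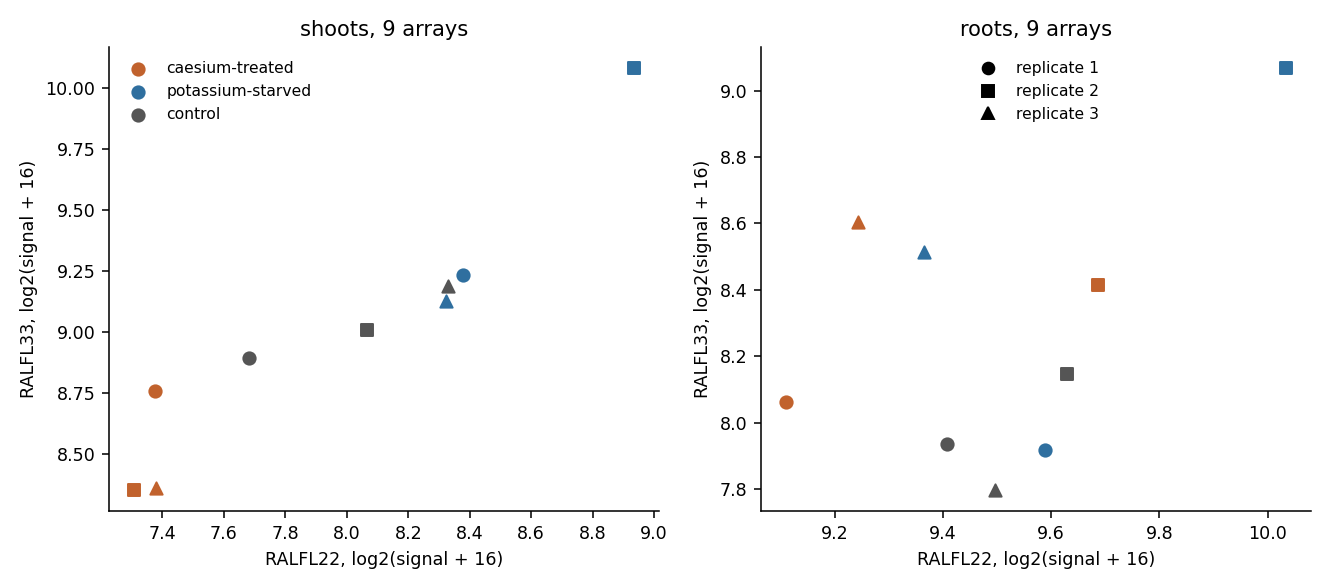
Log2(signal + 16) of RALFL33 against RALFL22 on the 9 shoot arrays (left) and the 9 root arrays (right), 1 point per array, coloured by treatment with the replicate number as symbol. The shoot arrays lie along a line (r = 0.942), and the root arrays do not once the 2 farthest are left out (r = -0.373).

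The family listed beside them holds 34 RALF genes, of which 11 had a named probe set here and 23 were not assessed. Of the 11, 6 were tested in shoots and 6 in roots. RALFL18, RALFL25, RALFL26 and RALFL28 lay below the floor in both organs, with signals between 0.4 and 14.2 on the 18 arrays. RALFL27 was read in roots, at 31.9 to 104.6, and stood at 0.3 to 1.0 in shoots. RALFL31 was tested in shoots only, at 41.7 to 118.2.

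In caesium-treated against potassium-starved shoots, 3 of the 6 tested RALF genes were lower and 0 higher, beside 9.72% and 18.7% of all probe sets. The 6 include RALFL22 and RALFL33, which were chosen with earlier results of these data known. This count and the medians of the 6 are therefore no separate result on the family. The other gene called lower was RALFL31, with signals of 52.1, 51.0 and 41.7 in caesium-treated and 65.6, 118.2 and 83.0 in potassium-starved shoots. Its log2 change was -0.68 ± 0.20 (SE; limma adjusted p = 0.03), a call kept in 1 of the 6 fits without 1 array. RALFL24, RALFL32 and RALFL34 had log2 changes of -0.23, -0.49 and -0.15 that did not pass. The median of the 6 was -0.59, against 0.13 over all tested probe sets. Against control, 0 of 6 passed with caesium, where 0.997% of all probe sets did, with negative changes in all 6 and a median of -0.58 beside 0.02 over all probe sets. With potassium starvation 0 of 6 passed, where 29.2% of all probe sets did, at a median of 0.18 beside -0.12.

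Between control roots and control shoots, all 5 RALF genes tested in both organs passed, RALFL22 and RALFL33 among them, beside 47.7% of all probe sets, and they split. RALFL32 went the way of RALFL22, with signals of 724.7, 555.6 and 522.2 in control roots and 48.9, 112.2 and 79.6 in control shoots, a log2 change of 2.72 ± 0.42 (SE; limma adjusted p = 3.09e-05). RALFL34, a ligand of the receptor THE1, went the way of RALFL33, with 132.9, 149.9 and 114.1 in control roots and 460.3, 780.4 and 728.5 in control shoots, a log2 change of -2.15 ± 0.23 (SE; limma adjusted p = 3.58e-07). RALFL24 was lower in roots too, by a log2 change of -1.35 ± 0.31 (SE; limma adjusted p = 0.00171). No RALF gene passed in any root comparison of treatments. The nearest to the threshold was RALFL24 in caesium-treated against potassium-starved roots, at 0.86 ± 0.24 (SE; limma adjusted p = 0.0626).

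**Figure D4:**
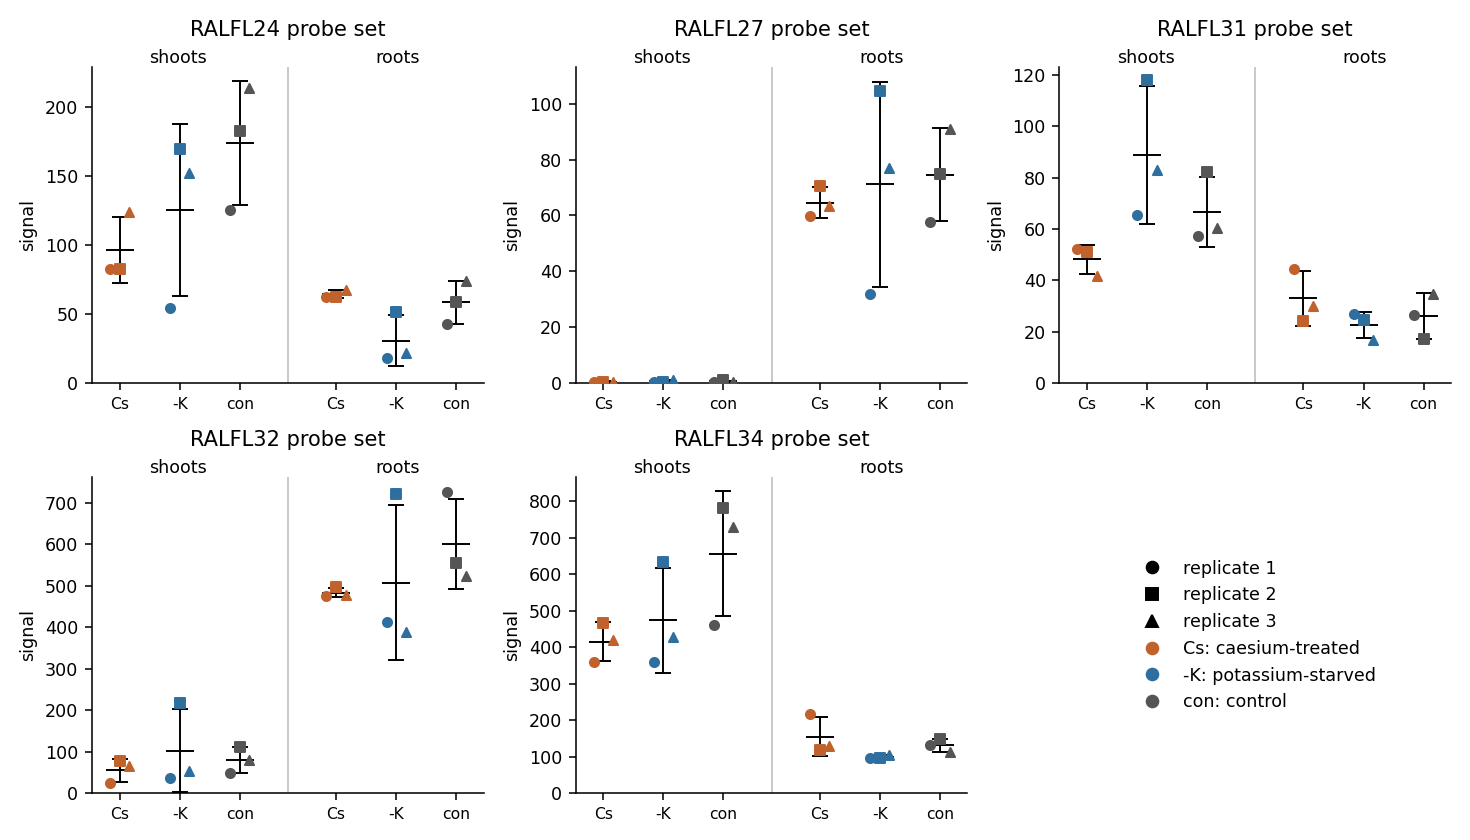
Signal of 5 other RALF probe sets on each of the 18 arrays, on the authors' linear scale with a separate axis for each gene; Cs, -K and con stand for caesium-treated, potassium-starved and control, and bars show the mean and SD (n = 3). RALFL27 and RALFL32 have their high values in roots, and RALFL24, RALFL31 and RALFL34 have theirs in shoots.

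The receptors were read through 12 of the 17 listed CrRLK1L kinases, 5 of them tested in shoots and 7 in roots. In potassium-starved against control shoots 3 of 5 were lower, beside 17.1% of all probe sets. FER, the receptor named above, had signals of 220.7, 148.1 and 283.5 in potassium-starved and 446.4, 437.9 and 490.4 in control shoots. Its log2 change was -1.06 ± 0.21 (SE; limma adjusted p = 0.00438). THE1 (THESEUS1), known for sensing wall damage, averaged 61.5 ± 25.6 in potassium-starved and 167.8 ± 36.0 in control shoots (SD, n = 3 each), a log2 change of -1.28 ± 0.27 (SE; limma adjusted p = 0.00631). The kinase gene AT2G23200 averaged 50.0 ± 15.6 in potassium-starved and 102.6 ± 24.8 in control shoots (SD, n = 3 each), a log2 change of -0.85 ± 0.21 (SE; limma adjusted p = 0.0119). All 3 calls held in each of the 6 fits without 1 array. The shoot marker sum, given above for these arrays, was lower in potassium-starved shoots without overlap, and 3 of its 4 genes passed as lower (PRK, SBPASE and LHCB4.2). Its part in the kinase calls was not tested.

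In caesium-treated against potassium-starved shoots, which uses the same potassium-starved arrays, 3 of 5 were higher beside 18.7% of all probe sets. FER had 400.7, 493.0 and 452.2 in caesium-treated shoots against the potassium-starved values above, a log2 change of 1.03 ± 0.21 (SE; limma adjusted p = 0.00646), and passed in 6 of 6 fits without 1 array. THE1 changed by 0.94 ± 0.27 (SE; limma adjusted p = 0.0262) and AT2G23200 by 0.75 ± 0.21 (SE; limma adjusted p = 0.0218), calls kept in 4 and 2 of the 6 such fits. Against control, caesium-treated shoots gave 0 of 5, with FER at a mean of 448.6 in caesium-treated and 458.2 in control shoots. In roots 1 of 7 passed, beside 5.06% of all probe sets: THE1 in caesium-treated against potassium-starved roots, at 0.84 ± 0.20 (SE; limma adjusted p = 0.0387), a call kept in 1 of the 6 fits without 1 array. The shoot marker sum was 202.7 to 283.4 in caesium-treated and 90.8 to 171.8 in potassium-starved roots, and its part in this call was not tested. Between control roots and control shoots 1 of 4 kinases was higher and 2 were lower, beside 47.7% of all probe sets called. The call of AT2G23200, with means of 34.8 in control roots and 102.6 in control shoots (-1.21 ± 0.18 SE; limma adjusted p = 2.43e-05), held in 6 of 6 fits without 1 array, and those of THE1 (-0.66) and AT2G39360 (0.64) in 2 of 6 each. Over the 18 arrays with the mean of each organ taken off, FER and RALFL22 had r = -0.715 and FER and RALFL33 r = -0.722, given as a description. Over the 6 group means these were 0.343 and -0.864. Within shoots FER had -0.770 with RALFL22 and -0.819 with RALFL33, and within roots -0.404 and -0.571. PSY1R, a receptor kinase of another list, had -0.839 and -0.897 in shoots and 0.607 and 0.040 in roots. The negative r in shoots was thus not particular to FER.

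**Figure D5:**
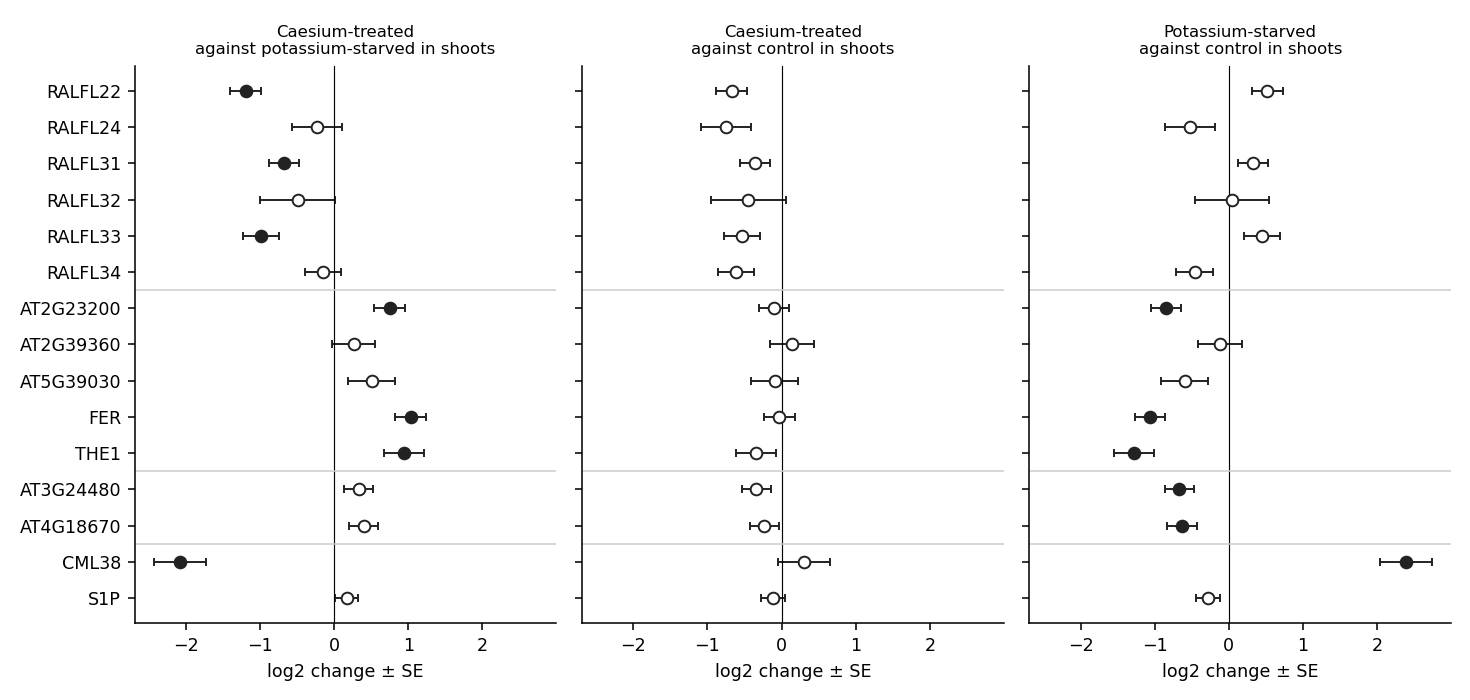
Log2 change ± SE, first-named minus second-named, of every RALF peptide gene, CrRLK1L kinase, leucine-rich repeat extensin and processing or signalling gene of the lists tested in shoots (top to bottom, split by grey lines), in 3 comparisons; filled points passed a limma adjusted p of 0.05. The RALF genes lie left of 0 and the kinases right of it in caesium-treated against potassium-starved shoots, and no point is filled in caesium-treated against control shoots.

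Among the wall proteins, 8 of 11 listed leucine-rich repeat extensins had a named probe set and 2 were tested in shoots. Both were lower in potassium-starved than in control shoots, beside 17.1% of all probe sets and with the shoot marker sums given above. AT3G24480 averaged 60.2 ± 10.2 in potassium-starved and 106.6 ± 27.9 in control shoots (SD, n = 3 each), a log2 change of -0.67 ± 0.19 (SE; limma adjusted p = 0.0261), and AT4G18670 changed by -0.63 ± 0.20 (SE) to a mean of 26.1 in potassium-starved shoots, below the floor of 26.7 (limma adjusted p = 0.0361). Of the 6 fits without 1 array, 3 kept the first call and 2 the second, and AT4G18670 did not pass after median centring (limma adjusted p = 0.0642). In roots 0 of 3 passed in any comparison of treatments. S1P, the protease named above, averaged 92.5 in caesium-treated, 81.4 in potassium-starved and 101.3 in control shoots and passed in no comparison.

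CML38, a calmodulin-like protein that binds RALF1, was higher in potassium-starved shoots, with signals of 244.5, 255.5 and 96.3 there and of 24.6, 32.9 and 11.9 in control shoots. The log2 change was 2.39 ± 0.35 (SE; limma adjusted p = 0.00104), and since the control mean lies below the floor it is no exact size. In caesium-treated shoots, at 47.4, 31.2 and 19.0, it was lower than in potassium-starved shoots by a log2 change of -2.08 ± 0.35 (SE; limma adjusted p = 0.00315), the same direction as for both peptide genes. The 4 LORELEI-like co-receptors and the 11 proton pumps had no named probe set and were not assessed. Of 18 other growth peptides and their receptors, 2 had a named probe set and 1 was tested, PSY1R, a receptor kinase linked to the peptide PSY1. It was higher in control roots than in control shoots, with means of 263.4 in control roots and 37.6 in control shoots (log2 change 2.38; limma adjusted p = 9.09e-10), and passed in no comparison of treatments.

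Patterns like those of both genes were sought among 6385 probe sets with 1 gene tested in both organs, by Pearson's r over the 18 arrays after the mean of each organ was taken off. The highest for RALFL22 were AT4G10360 (0.904), the prenylated RAB acceptor gene PRA8 (0.879), AT5G16660 (0.866), AT5G49540 (0.865) and AT5G64130 (0.863), and the lowest were AT2G36720 (-0.912), AT2G29065 (-0.908) and AT1G79990 (-0.908). AT4G10360 had signals of 152.5, 134.4 and 175.6 in caesium-treated shoots, 264.9, 368.1 and 266.4 in potassium-starved shoots and 153.4, 227.5 and 204.9 in control shoots. Since these genes were picked for their pattern on the same arrays, their differences between treatments are descriptions, with no test. The mean of each organ was not used in the choice, but the deviations of the control arrays from it were. The organ contrast of controls is therefore also given as a description. Its log2 change, roots minus shoots, was 0.66 for AT4G10360, 0.48 for PRA8, 0.28 for AT5G49540, 0.38 for AT5G64130 and -1.19 for AT5G16660. Over the 6 group means the r of AT4G10360 with RALFL22 was 0.941, while AT5G16660, at -0.634, had the opposite order of organs.

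For RALFL33 the highest were AT5G60680 (0.924), AT2G28330 (0.861), AT3G21610 (0.852), AT4G29260 (0.841) and AT4G08330 (0.838). The lowest were AT1G04850 (-0.932), the acetyl-CoA synthetase gene ACS (-0.909) and BPM3 (-0.906). AT5G60680 had signals of 255.5, 279.1 and 265.4 in caesium-treated shoots, 458.2, 732.6 and 462.7 in potassium-starved shoots and 425.4, 386.3 and 399.5 in control shoots, with all caesium-treated arrays lowest. AT1G04850, chosen for the opposite pattern, had 170.7, 172.1 and 180.4 in caesium-treated shoots and 104.2, 64.2 and 98.8 in potassium-starved shoots. RALFL33 itself had r = 0.788 with RALFL22 on this measure and was not among the 5 highest for it.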

How the data were processed

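Per the labels, total RNA was labelled with biotin and 1 sample was hybridised to each of 18 arrays. The deposited intensity values were linear, and the authors had scaled each array to a mean of about 100 with 2% of values trimmed from either end, as the values themselves show; no source used here gives the software. From these, log2(signal + 16) was computed without further scaling. Probe sets whose mean log2 value lay above the 40th percentile of the organ were tested. This floor corresponds to 26.7 in shoots and to 27.7 in roots, and it was passed by 13647 probe sets per organ and by 11867 in both. Models were fitted with limma 3.58.1 in R 4.3.3 to the 9 arrays of an organ, or to all 18 for the organ contrast and the differences between responses. P-values were two-sided and adjusted by the Benjamini-Hochberg method over all probe sets tested, with a threshold of 0.05. Fold changes are on the log2(signal + 16) scale and understate changes of low signals. The number of arrays limits the precision.

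Probe sets were named from the platform annotation, updated by RefSeq gene ID: 13513 had 1 gene, 503 several and 8730 were not listed. RALFL22 was matched by symbol. Both genes, the gene lists and the tests were chosen with earlier results of these data known. By rule, both genes were named in every comparison, then list members past the threshold or nearest to it, then the 5 most and 3 least alike in pattern. Numbers pair the arrays where deviations of every same-numbered pair correlate above 0.1. This held in shoots (lowest r 0.319 for potassium starvation against control, 0.495 for caesium against control and 0.207 for caesium against potassium starvation) and in roots for caesium against control (0.18), not in the other comparisons. The main fits, and the p-values and shares from them, left this pairing out, also where it held. Alternatives were other pseudocounts, filters and scalings, the replicate block, scanner background, array weights, fewer arrays and leaving out each array. The fit was tested on simulated data.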

Additional observations from a re-analysis of the deposited data

Results flagged for a closer look

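Of the genes in the lists, 2 differed between organs in their response to potassium starvation by the test of the difference itself, and neither was RALFL22 or RALFL33. They were 1 of the 4 CrRLK1L kinases and 1 of the 2 processing and signalling genes tested. Of the RALF peptide genes 0 of 5 passed and of the extensins 0 of 2. Among all probe sets 1187 of 11867 (10%) passed, so these calls are no result about the lists. For FER the root response minus the shoot response was 0.94 ± 0.27 on the log2 scale (SE; limma adjusted p = 0.0325), with a change of -0.12 in roots and -1.06 in shoots. It passed in 5 of 12 fits without 1 array and not with scanner background as a covariate (limma adjusted p = 0.0996). For CML38 it was -2.19 ± 0.43 (SE; limma adjusted p = 0.00401), with a change of 0.20 in roots and 2.39 in shoots, and it passed in 12 of 12 such fits.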

How the results depend on the processing

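Under all 15 alternatives RALFL22 and RALFL33 passed in caesium-treated against potassium-starved shoots, with log2 changes from -1.38 to -0.996 and from -1.18 to -0.69, and in control roots against control shoots, from 1.31 to 1.64 and from -1.16 to -0.94. In potassium-starved against control shoots neither passed under any of 15. The lowest limma adjusted p there was 0.0502 for RALFL22, close to the threshold, and 0.0949 for RALFL33. Array weights brought both past the threshold in caesium-treated against control shoots (-0.79 and -0.67), and RALFL33 in the organ difference of the caesium response (1.17); the cause was not tested. Without 1 array the values in caesium-treated against control shoots ranged from -0.84 to -0.52 for RALFL22 and from -0.67 to -0.46 for RALFL33. Where nothing passed, directions reversed for RALFL22 in potassium-starved against control roots with scanner background as a covariate (-0.27), with array weights (-0.038) and without 1 array (-0.035 to 0.30), and, without 1 array, for RALFL33 in caesium-treated against potassium-starved roots (-0.43 to 0.14) and in the organ difference of the potassium response (-0.19 to 0.39).

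Counts of calls over all probe sets moved further. With the replicate block they were 5524 for potassium starvation against control, 790 for caesium against control and 5359 for caesium against potassium starvation in shoots, 724, 51 and 1629 for these in roots, and 1806 and 84 for the organ differences of the potassium and caesium responses; the block changed no call of RALFL22 or RALFL33. For caesium against control in shoots the other counts were 50 with a pseudocount of 1, 30 with no filter, 206 with scanner background and 1330 with array weights, and in roots 1 with no filter, 22 with array weights and 1 without the repeat arrays. For potassium starvation against control in roots they were 130 with a pseudocount of 1, 93 with no filter, 1 with scanner background, 1133 with array weights, 75 with 6 arrays and 128 without the repeat arrays. For caesium against potassium starvation in roots they were 331 with scanner background, 2539 with array weights and 377 without the repeat arrays. The organ contrast gave 9507 with no filter and 8630 with probe sets above the floor in either organ. The organ difference gave 1897 with array weights for potassium, and for caesium 6 with a pseudocount of 1, 6 with scanner background, 296 with array weights and 33 with probe sets above the floor in either organ. Without 1 array the counts ranged, in shoots, from 2372 to 3808 for potassium starvation against control, 0 to 121 for caesium against control and 2102 to 3659 for caesium against potassium starvation. In roots they ranged from 40 to 238, 0 to 13 and 149 to 623 for the same comparisons, and for the organ differences from 744 to 1580 for potassium and 1 to 30 for caesium.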
